A study of Homo sapiens with 12 samples.

Results

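The libraries described here compare RBE cells that entered p53 activation with and without prior inhibition of mutant IDH1. RBE is an established human bile duct cancer line. AG120_Nutlin cells received 5 µM AG-120 for 22 days and then 5 µM Nutlin for 72 hours. vehicle_Nutlin cells received DMSO in place of AG-120 for the same 22 days, followed by the same Nutlin treatment, so Nutlin is common to both groups. The libraries were chosen by the column names of the deposited count table, 3 per group, which makes 6 of the 12 libraries in the series, and all genes were examined. The remaining 6 libraries, 3 AG120 and 3 vehicle, had the same 22-day pretreatments with DMSO in place of Nutlin. They give the AG-120 effect without p53 activation, in samples that the comparison with Nutlin does not share. Per the labels, the series asked how 2-hydroxyglutarate (2-HG) alters p53-directed expression. The counts hold no measure of 2-HG, and the labels do not say whether replicates were separate cultures, so p-values measure only the spread between these libraries, which may be technical.

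Mutant IDH1 turns 2-oxoglutarate into 2-HG, which competes with 2-oxoglutarate at dioxygenases such as the TET DNA demethylases and the JmjC histone demethylases. AG-120, also called ivosidenib, blocks the mutant enzyme. Nutlin keeps MDM2, a ubiquitin ligase, from binding p53, so that p53 accumulates and transcribes genes of cell cycle arrest and death. Several of the genes below answer to YAP and TAZ, coactivators that bind TEAD factors on DNA, or to SRF, which reads the state of actin. Others answer to NRF2, which responds to oxidative stress.

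Library totals ran from 16840161 to 24052218 counts in the 6 libraries with Nutlin. The vehicle_Nutlin libraries were more dispersed than the AG120_Nutlin libraries, with a median SD per gene of 0.290 against 0.0924 on the log2 scale. In vehicle_Nutlin replicates 1, 2 and 3, 7.58%, 11.8% and 15% of genes lay over 2-fold from the other libraries of the group, against 1.77% to 2.32% in AG120_Nutlin. The deviation of these vehicle_Nutlin libraries correlated with transcript length across genes (Spearman 0.317, 0.197 and -0.331, given as a description), and mitochondrially encoded genes took 3.20%, 3.45% and 1.71% of their counts. In AG120_Nutlin the same length correlations lay between -0.0797 and 0.0543, and the mitochondrial share between 4.11% and 4.42%. Biliary and epithelial markers matched the label: KRT19 stood between 1962 and 3263 CPM and EPCAM between 15.4 and 17.9 CPM in these 6 libraries. DCN, LUM and CD3E, markers of fibroblasts and leukocytes, had 0 counts in all 6. Other fibroblast markers had counts: PDGFRA stood between 3.06 and 9.36 CPM, PDGFRB between 1.41 and 3.07, and COL1A1 between 0.3 and 2.12. Summed leukocyte markers lay between 2.41 and 4.61 CPM and summed endothelial markers between 3.6 and 8.55 CPM. SERPINA1, from the hepatocyte list, stood between 257 and 327 CPM. Levels are CPM, counts scaled to each library's TMM-adjusted total, which are not per length, so they compare 1 gene across libraries and not 1 gene with another.

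Genes at the centre of the design were not called. MDM2, both the Nutlin target and a p53 target gene, stood at 3350, 3324 and 3354 CPM in AG120_Nutlin replicates 1 to 3. In vehicle_Nutlin it stood at 2951, 2107 and 3484 CPM, a range that holds all AG120_Nutlin values. CDKN1A, the gene of the p21 inhibitor of cyclin-dependent kinases, was at 10073, 10405 and 10201 CPM against 7840, 8092 and 9400 CPM. Its groups did not overlap, but the log2 fold change of 0.28 ± 0.12 (SE) did not pass the test (edgeR quasi-likelihood, adjusted p = 0.224). IDH1, the gene of the enzyme that AG-120 inhibits, was at 104, 101 and 100 CPM against 95.8, 102 and 132 CPM (log2 fold change -0.11, adjusted p = 0.573).

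Among 15691 genes tested, 303 were lower in AG120_Nutlin (1.93%) and 68 were higher (0.433%) at an adjusted p of at most 0.05, which is what "called" means below. Both directions together made 371 calls (2.36%). Of these, 71 were lower and 10 higher by at least 2-fold, and the median log2 fold change of all genes was -0.00502. All 371 called genes had groups that did not overlap, which was also true of 14.1% of all genes in the lower and 14.2% in the higher direction. Protein-coding genes made up 274 of the lower and 65 of the higher genes. The gene lists described below held 71 of the lower and 14 of the higher genes. The number of calls rests on the spread taken from all 12 libraries, since a fit of the 2 groups alone called 15 genes, all lower and all among the 303: ALDH1A3, AOX1, BCAT1, CTGF, CTNNAL1, CYR61, KRT7, KRT80, LOXL4, MATN2, MEIS3, MMP24, MYC, OXTR and TPM1. Without AG120_Nutlin replicate 1, 2 or 3 the lower calls numbered 73, 56 and 72 and the higher calls 7, 5 and 6. Without vehicle_Nutlin replicate 1 there were 619 and 418, and without vehicle_Nutlin replicate 3 there were 480 and 203. In all 6 fits that left out 1 of these libraries, 49 lower and 4 higher genes kept their calls.

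The counts of list members called, given below, also moved upward in some fits. With vehicle_Nutlin replicates 2 and 3 and AG120 replicate 1 left out, 1 vehicle_Nutlin library is left, assumed to vary like the other groups. Median log2 fold changes of lists in that fit follow, with those of the main fit in brackets. They were -0.371 (-0.119) for YAP/TEAD targets, -0.375 (-0.466) for keratins and -0.178 (-0.163) for actin genes. They were -0.265 (-0.14) for mesenchymal genes and -0.0924 (0.147) for laminin, collagen and integrin genes. For ribosomal protein, ribosome biogenesis, G2/M and G1/S genes they were -0.313 (-0.579), -0.236 (-0.243), -0.449 (-0.313) and -0.109 (-0.127). For NRF2 targets, other p53 targets and mitochondrially encoded genes they were 0.39 (0.272), 0.16 (0.158) and 0.402 (0.764).

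**Figure D1:**
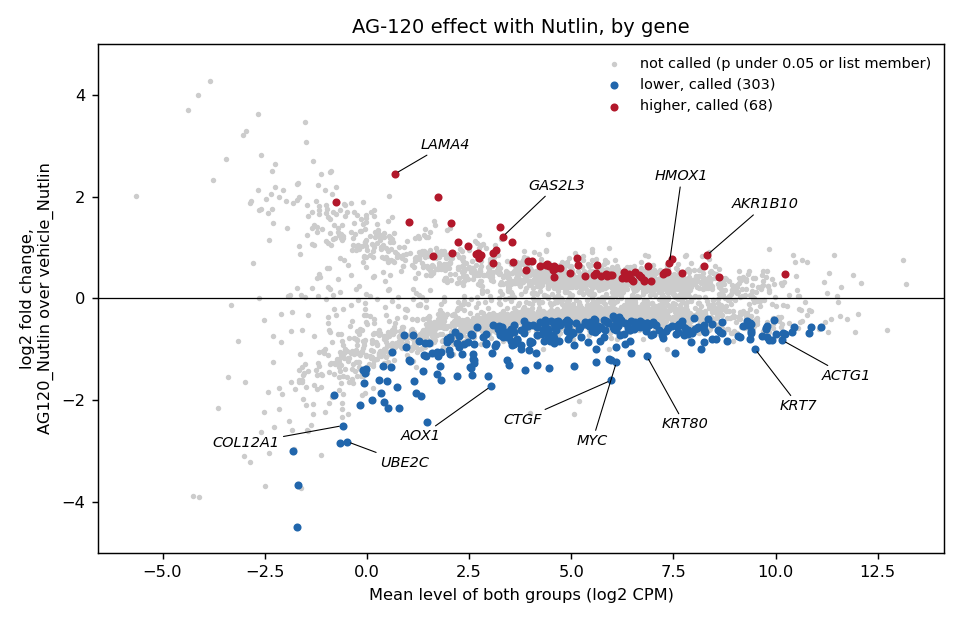
Log2 fold change of AG120_Nutlin over vehicle_Nutlin (vertical) against the mean level of both groups in log2 CPM (horizontal), 1 point per gene. Blue points are the 303 genes called lower and red points the 68 called higher; grey points are genes not called, drawn where p was under 0.05 or the gene belongs to a list.

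YAP/TEAD targets were among the lists with the largest share of lower calls. Of 26 measured targets 8 fell and 0 rose (30.8% lower, against 1.93% of all genes), and the list's median log2 fold change was -0.119. CTGF, a secreted matricellular protein (hg19 chromosome 6, 132269316 to 132272513), was at 31.5, 29.7 and 32.3 CPM in AG120_Nutlin and at 103, 91.1 and 91.0 CPM in vehicle_Nutlin. It was 3.05-fold lower (log2 fold change -1.61 ± 0.14, adjusted p = 0.000126), while AG120 and vehicle libraries without Nutlin averaged 95.4 and 81.0 CPM. The 3 AG120_Nutlin libraries thus stood below all 9 others. CYR61, a relative of CTGF (chromosome 1, 86046444 to 86049645), was at 39.5, 36.1 and 34.5 CPM against 82.3, 82.9 and 86.1 CPM, 2.28-fold lower (adjusted p = 0.000464). ANKRD1, a nuclear ankyrin repeat protein (chromosome 10, 92671853 to 92681033), was at 21.6, 17.0 and 18.6 CPM against 52.7, 35.3 and 55.7 CPM, 2.51-fold lower (adjusted p = 0.000899). Its vehicle_Nutlin libraries differed among themselves, and the lowest of them was still above every AG120_Nutlin library.

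TGFB2, a TGF-beta ligand, was 2.10-fold lower at 61.1, 55.5 and 55.0 CPM against 141, 124 and 94.4 CPM (adjusted p = 0.00127). AMOTL2, a junction protein that binds YAP, was 1.65-fold lower (55.4 ± 2.37 against 91.5 ± 15.5 CPM, mean ± SD, n = 3). AJUBA, a LIM protein that restrains the LATS kinases, was 1.39-fold lower (96.2 ± 1.89 against 134 ± 9.72 CPM). FJX1 and TNFRSF12A, the receptor for the cytokine TWEAK, were 1.81-fold and 1.69-fold lower. Of the other 18 targets none was called: IGFBP3 (-0.54, adjusted p = 0.056) lay nearest to the threshold, and 9 had a positive change, up to 0.44 for the clotting initiator F3. Transcripts of the pathway itself did not pass: YAP1 was at 0.23 (adjusted p = 0.163), TEAD1 at 0.16, TEAD4 at -0.47 (adjusted p = 0.0896) and the kinase LATS2 at 0.18 on the log2 scale. Without AG120_Nutlin replicate 1, 2 or 3 the lower targets numbered 4, 4 and 5, with CTGF, CYR61, ANKRD1 and TGFB2 in each fit, and in the fit of the 2 groups alone they were CTGF and CYR61.

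**Figure D2:**
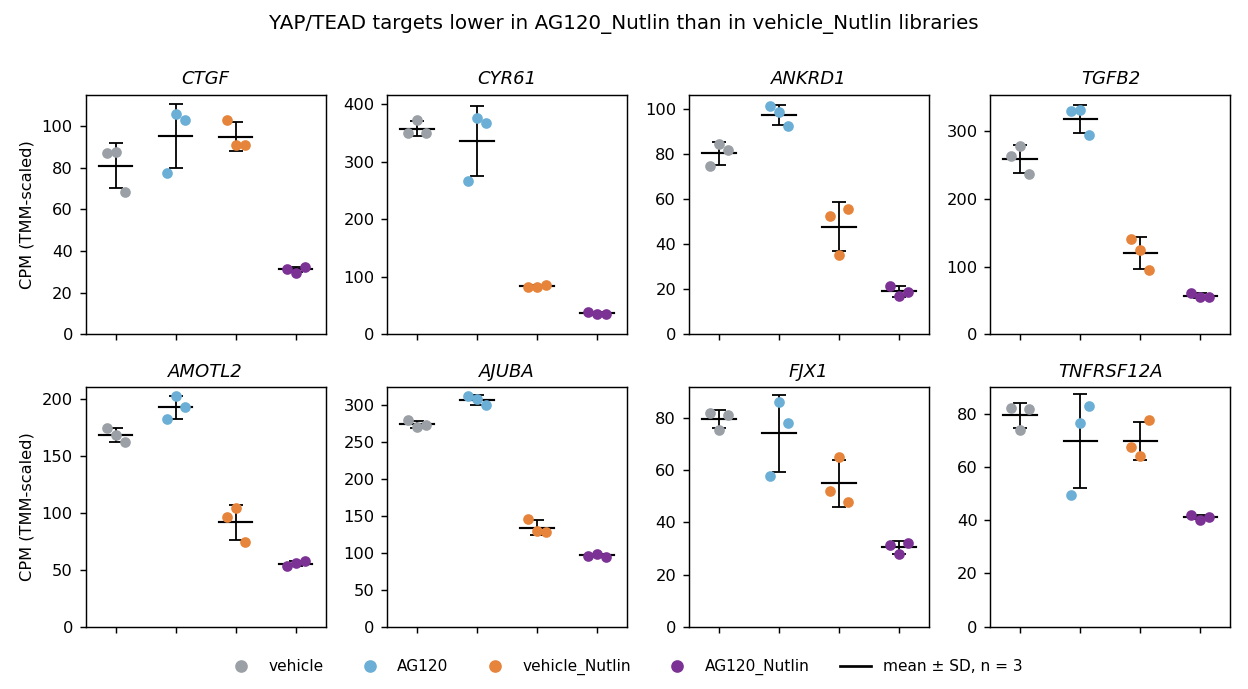
Level in CPM (vertical, from 0) of the 8 called YAP/TEAD targets in each of the 12 libraries, by group; lines and bars are the mean ± SD of 3 libraries. Each AG120_Nutlin group, such as CTGF at 29.7 to 32.3 CPM, lies below every vehicle_Nutlin library, which held for all 303 genes called lower.

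Upstream DNA of these targets is shown because TEAD factors bind the letters GGAATG, which can be searched. RefSeq (GRCh38.p14) gave a promoter for 6 of the 8 called targets, and CYR61 and TNFRSF12A had no entry. The 250 bases before the transcript start of CTGF (RefSeq CCN2, chr6:131951373-131951622, minus strand), ANKRD1 (chr10:90921088-90921337, minus strand) and TGFB2 (chr1:218345086-218345335, plus strand) follow 5′ to 3′, with matches to GGAATG or its reverse complement in capitals.
CTGF: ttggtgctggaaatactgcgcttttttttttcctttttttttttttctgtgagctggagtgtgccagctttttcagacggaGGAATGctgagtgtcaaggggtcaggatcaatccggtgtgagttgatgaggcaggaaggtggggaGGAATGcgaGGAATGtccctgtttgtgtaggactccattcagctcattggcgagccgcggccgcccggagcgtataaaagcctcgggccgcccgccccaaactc
ANKRD1: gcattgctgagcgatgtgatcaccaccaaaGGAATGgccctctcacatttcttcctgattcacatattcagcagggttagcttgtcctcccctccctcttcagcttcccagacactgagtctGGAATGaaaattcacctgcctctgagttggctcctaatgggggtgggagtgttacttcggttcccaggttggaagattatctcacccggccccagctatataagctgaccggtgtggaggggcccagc
TGFB2: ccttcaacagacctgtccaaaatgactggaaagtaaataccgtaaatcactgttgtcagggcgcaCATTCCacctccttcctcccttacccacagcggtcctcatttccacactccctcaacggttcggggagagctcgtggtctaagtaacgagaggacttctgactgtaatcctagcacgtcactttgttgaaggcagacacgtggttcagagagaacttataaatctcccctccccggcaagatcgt

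CTGF held 3 matches, the first base of each lying 169, 104 and 95 bases before the start. ANKRD1 held 2 matches (220 and 128 bases before the start) and TGFB2 held 1, on the reverse strand (185 bases before). AMOTL2, AJUBA and FJX1 held none in this window. Among the 19 list members with an entry 6 windows held a match (31.6%), against 4175 of 35116 windows of the same length over all promoters (11.9%), on either strand. The list was made of YAP/TEAD targets, so a higher share could be met whatever these libraries show. It took 1 window per member, while the share over all promoters took every window of every gene. The AP-1 motif TGANTCA, whose letters read alike on both strands, was in 2 of the 19 windows, ANKRD1 among them, and in 6.57% of all windows. A match is a run of letters, and no binding was measured.

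All 9 measured keratins, which form the filaments of epithelial cells, had a negative log2 fold change (median -0.466), and 3 of them fell (33.3%). KRT80 (chromosome 12, 52562780 to 52585784), was at 72.8, 68.8 and 74.7 CPM in AG120_Nutlin and at 159, 157 and 159 CPM in vehicle_Nutlin. This 2.20-fold difference (log2 fold change -1.14 ± 0.09, adjusted p = 7.22e-05) was many times the spread within either group. KRT7, a duct keratin (chromosome 12, 52626304 to 52645970), was at 487, 470 and 488 CPM against 856, 937 and 1078 CPM, 1.99-fold lower (adjusted p = 0.000899). KRT81 was 1.71-fold lower (adjusted p = 0.0296), a call that ended when any 1 AG120_Nutlin library was left out. The abundant duct keratins KRT19 (-0.47, adjusted p = 0.0883), KRT8 (-0.40) and KRT18 (-0.42) did not pass. In each keratin named here but KRT80, vehicle_Nutlin replicate 3 was the highest of the 6 libraries. The summed list was at 4930 to 5190 CPM in AG120_Nutlin, and at 6410, 6700 and 8460 CPM (lowest, median, highest) in vehicle_Nutlin. Its median transcript was 2124 bases. Without vehicle_Nutlin replicate 3 the list median was -0.372, with the length offset -0.494, and 3 fell in each. The part of that library was not tested further.

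Junction and actin genes changed in a few members. Of 22 epithelial junction genes only CLDN1, a tight junction strand protein, was called: it was at 63.8, 58.8 and 64.9 CPM against 103, 112 and 122 CPM, 1.80-fold lower (adjusted p = 0.000588). E-cadherin CDH1 was at -0.17 (adjusted p = 0.394). Of 41 SRF and actin cytoskeleton genes 4 fell and 0 rose (9.76% lower, median -0.163). TPM1, a tropomyosin that coats actin filaments, was at 230, 205 and 218 CPM against 377, 380 and 420 CPM, 1.80-fold lower (adjusted p = 0.000529). ACTG1, cytoplasmic gamma-actin, was at 840, 804 and 845 CPM against 1366, 1357 and 1689 CPM, 1.77-fold lower (adjusted p = 0.00212). The other called members were ANLN, a contractile ring protein (-0.75), and TAGLN2, an actin-binding protein (-0.60), and ACTB, the partner of ACTG1, was at -0.20 (adjusted p = 0.382). Beta- and gamma-actin have many processed pseudogene copies, so reads of ACTG1 may be split by the counting. Without AG120_Nutlin replicate 1, 2 or 3 the actin genes called lower numbered 2, 3 and 2, and without vehicle_Nutlin replicate 3 there were 8.

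Mesenchymal genes fell in 2 of 17 cases, THBS1 and CDH2. THBS1, thrombospondin, was at 118, 113 and 127 CPM against 303, 254 and 198 CPM, 2.10-fold lower (adjusted p = 0.00655). N-cadherin CDH2 was 1.42-fold lower (68.5 ± 0.341 against 96.9 ± 7.63 CPM, adjusted p = 0.0099). THBS1 also counts among the 21 TGF-beta targets, of which 2 fell and 0 rose. The PDGF receptors PDGFRA (3.5, 3.20 and 3.06 against 8.21, 7.19 and 9.36 CPM, adjusted p = 0.00834) and PDGFRB (1.69, 1.77 and 1.41 against 3.07, 2.70 and 2.35 CPM, adjusted p = 0.0491) fell as well. Of the 69151 bases of the PDGFRA entry 66176 overlap that of FIP1L1, at 39.3 CPM in vehicle_Nutlin, so their reads may not be separable. Both receptors belong to a list of 10 fibroblast markers whose summed level was 5.53 to 6.41 CPM in AG120_Nutlin and 10.5 to 14 CPM in vehicle_Nutlin. DCN and LUM were at 0 counts and COL3A1 at or near 0. The part of other cells in these values was not tested. In bulk RNA, fewer cells of a kind and less RNA per cell cannot be told apart. Without vehicle_Nutlin replicate 3 the lower calls numbered 6 among mesenchymal genes and 6 among TGF-beta targets. The calls for CDH2 and PDGFRB ended when any 1 AG120_Nutlin library was left out, that for THBS1 without AG120_Nutlin replicate 2 and that for PDGFRA without replicate 2 or 3. The call for PDGFRB was also absent without vehicle_Nutlin replicate 1 or 2.

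Of 14 lysyl oxidases, metalloproteinases and inhibitors 3 fell (21.4%, median -0.269) and 0 rose. LOXL4, a collagen crosslinking oxidase (chromosome 10, 100007447 to 100028007), was at 6.51, 6.31 and 6.47 CPM against 16.5, 17.8 and 13.4 CPM, 2.46-fold lower (adjusted p = 0.000136). LOXL2, of the same family, was at 32.7, 32.1 and 31.7 CPM against 73.1, 64.1 and 55.9 CPM, 2.00-fold lower (adjusted p = 0.000329). The LOXL2 entry overlaps that of ENTPD4 for 39546 bases. MMP24, a membrane metalloproteinase (chromosome 20, 33814457 to 33864801), was at 35.1, 39.4 and 39.0 CPM against 83.2, 81.9 and 97.5 CPM, 2.31-fold lower (adjusted p = 0.000136). All of the deposited MMP24 interval lies within those of EDEM2 and of the antisense entry MMP24-AS1, so their reads may not be separable: EDEM2 was at 53.5, 55.5 and 51.2 against 58.7, 47.9 and 78.2 CPM (adjusted p = 0.427), and MMP24-AS1 was at 70.4, 72.3 and 67.2 against 82.8, 84.8 and 65 CPM (log2 fold change -0.15, adjusted p = 0.689). All 3 calls held without each of the 6 libraries in turn. Among 33 laminins, collagens and integrins, LAMA4, a laminin chain of vessel and muscle basement membrane, rose and the collagen COL12A1 fell. LAMA4 was at 2.77, 2.32 and 3.06 CPM against 0.794, 0.240 and 0.427 CPM, 5.46-fold higher (log2 fold change 2.45 ± 0.30, adjusted p = 0.00114), and lower than in the libraries without Nutlin, which averaged 10.7 CPM in AG120 and 7.77 CPM in vehicle. COL12A1 was at 0.181, 0.0986 and 0.294 CPM against 1.32, 1.56 and 0.470 CPM (adjusted p = 0.0285), a low level at which 1 library weighs much. Its call ended when any 1 AG120_Nutlin library, or vehicle_Nutlin replicate 2, was left out. Without vehicle_Nutlin replicate 3 the laminin, collagen and integrin list had 2 higher and 8 lower calls, and its median turned from 0.147 to -0.116. MATN2, a matrilin of the pericellular matrix, was at 9.83, 10.7 and 10.4 CPM against 26.6, 23.7 and 26.2 CPM, 2.47-fold lower (adjusted p = 7.22e-05). The MATN2 entry overlaps that of the ribosomal protein gene RPL30 for 11866 bases.

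A few enzymes of amino acid metabolism fell. BCAT1, which moves nitrogen from branched-chain amino acids to 2-oxoglutarate (chromosome 12, 24964295 to 25102393), was at 7.35, 6.02 and 6.17 CPM against 14, 16.1 and 15.4 CPM, 2.33-fold lower (log2 fold change -1.22 ± 0.14, adjusted p = 0.000886). PHGDH, the first enzyme of serine synthesis, which can also form 2-HG, was at 3.86, 3.40 and 4.70 CPM against 6.62, 6.83 and 8.08 CPM, 1.81-fold lower (adjusted p = 0.00798). They were the only calls among 20 genes of IDH and 2-HG metabolism (10.0% lower, median -0.174): IDH2 was at 0.01 and the 2-HG dehydrogenase D2HGDH at 0.25, neither of them called. PHGDH is also an ATF4 target, as are PYCR1, which makes proline, and the amino acid transporter SLC7A5. PYCR1 was at 22.1, 23.7 and 23.8 CPM against 37.9, 43 and 50 CPM, 1.88-fold lower (adjusted p = 0.000899), and SLC7A5 was 1.78-fold lower (16 ± 0.840 against 28.4 ± 4.27 CPM). The other 21 of 24 ATF4 targets were not called, among them ASNS (-0.39) and PSAT1 (-0.40), and the list median was -0.0357. The PHGDH call was absent without AG120_Nutlin replicate 1 or 2.

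Genes of the 2-oxoglutarate dioxygenases, the enzyme family at which 2-HG can compete, were not called. Of 36 measured genes 0 passed in either direction, and 25 had a positive change (median 0.120). Over all genes 2.36% were called, a share at which a list this short can hold 0 calls. TET1, TET2 and TET3 were at 0.65, 0.50 and 0.56 on the log2 scale (adjusted p = 0.202, 0.151 and 0.432). TET3 had 1 low library, vehicle_Nutlin replicate 3: it was at 22.1, 23.4 and 21.7 CPM in AG120_Nutlin and at 22.0, 19.7 and 4.15 CPM in vehicle_Nutlin. KDM6B, an H3K27 demethylase, had the same low library, with 86.2, 85.3 and 81.4 against 77.0, 91.3 and 9.83 CPM. With an offset for transcript length the list median was -0.000814.

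MYC, a driver of growth and ribosome synthesis, was at 42.5, 38.5 and 41.5 CPM against 105, 102 and 84.4 CPM, 2.38-fold lower (log2 fold change -1.25 ± 0.15, adjusted p = 0.000899). It was the only call among 21 MAPK output genes. Of 32 ribosome biogenesis genes 4 fell and 0 rose (12.5% lower, median -0.243, 30 negative): the nucleolar proteins NOP56 (79.4, 79.2 and 77.8 against 107, 107 and 114 CPM), GNL3 and NPM1, and BYSL of the small subunit, by 1.33- to 1.39-fold. Of 33 ribosomal protein genes 15 fell and 0 rose (45.5% lower), and all 33 were negative with a median of -0.579. RPS2 was at 796, 767 and 804 CPM against 1120, 1169 and 1533 CPM, 1.61-fold lower (adjusted p = 0.0133). RPL32 was 1.74-fold, RPL14 1.58-fold and RPL3 1.58-fold lower.

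In each ribosomal protein gene named here vehicle_Nutlin replicate 3 was the highest of the 6 libraries. The summed level of the list was 23200 to 24200 CPM in AG120_Nutlin, and 29600, 32300 and 45100 CPM as the lowest, median and highest in vehicle_Nutlin. The same replicate 3 had the lowest mitochondrial share and a negative length correlation, and the median transcript of the list was 2108 bases against 3558.5 for all genes. Without it 18 ribosomal protein genes were lower and the list median was -0.394, and with the length offset there were 11 and a median of -0.534. When any 1 AG120_Nutlin library was left out, 0 were called, and the 4 biogenesis calls ended too. Without vehicle_Nutlin replicate 1 there were 25 ribosomal protein genes. The biogenesis calls numbered 6 without vehicle_Nutlin replicate 1, 9 without replicate 3 and 8 with DESeq2. The part of transcript length and of that library in the result was not tested beyond these fits. Also, 11 of the 303 lower genes had symbols of ribosomal protein pseudogenes, and reads can be split between these genes and their near-identical copies. The 13 mitochondrially encoded genes were all positive (median 0.764) with 0 called: MT-CO1 was at 11561, 11073 and 11058 CPM against 8454, 8309 and 3081 CPM, and without replicate 3 the list median was 0.355 and 2 were called higher.

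Cell cycle transcripts stood low in both groups with Nutlin, and 12 of them were lower in AG120_Nutlin than in vehicle_Nutlin. TOP2A, the topoisomerase of dividing cells, averaged 742 CPM in vehicle and 679 in AG120 without Nutlin. With Nutlin it was at 9.83, 9.57 and 10.5 CPM in AG120_Nutlin and at 14.2, 15.6 and 13.3 CPM in vehicle_Nutlin, 1.44-fold lower (adjusted p = 0.0157). Of 60 G2/M genes 8 fell and 0 rose (13.3% lower, median -0.313). They were the kinases AURKA (4.34, 5.87 and 5.53 against 9, 9.05 and 8.85 CPM) and BUB1B, the transcription factor MYBL2, ANLN and ECT2 of cytokinesis, UBE2C of the anaphase complex, TOP2A and CCNB1. UBE2C was at 0.241, 0.0986 and 0.176 CPM against 0.900, 1.80 and 1.03 CPM (adjusted p = 0.0133), a low level at which a few reads weigh much. MYBL2 was low as well, at 0.663, 0.592 and 1.00 CPM against 1.85, 1.68 and 2.09 CPM. Of 50 G1/S genes 4 fell and 0 rose (8% lower, median -0.127): TK1, a thymidine kinase (2.41, 1.97 and 1.71 against 3.49, 3.42 and 4.23 CPM), cyclin E1 CCNE1, the helicase subunit MCM6, and E2F1. Only AURKA among these was called without each of the 6 libraries in turn. Without AG120_Nutlin replicate 1, 2 or 3 the G2/M calls numbered 4, 2 and 3 and the G1/S calls 1, 0 and 0. A smaller share of cycling cells and less transcript per cell cannot be told apart here.

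GAS2L3, which links microtubules to actin in dividing cells (chromosome 12, 100967461 to 101022064), went the other way. It was at 13.1, 15.5 and 13.3 CPM in AG120_Nutlin against 7.41, 5.39 and 5.30 CPM, 2.32-fold higher (log2 fold change 1.21 ± 0.15, adjusted p = 0.00105), and both were below the 37.3 and 41.3 CPM of AG120 and vehicle. The call held without each of the 6 libraries in turn.

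NRF2 targets formed the largest group among the lists with higher calls. Of 27 measured targets 7 rose and 0 fell (25.9% higher, against 0.433% of all genes), with a median of 0.272. AKR1B10, an aldo-keto reductase that clears aldehydes (chromosome 7, 134212344 to 134226160), was at 398, 405 and 427 CPM in AG120_Nutlin and at 206, 198 and 280 CPM in vehicle_Nutlin. It was 1.80-fold higher (log2 fold change 0.85 ± 0.12, adjusted p = 0.00505) and averaged 86.0 CPM in AG120 and 59.1 in vehicle. HMOX1, heme oxygenase (chromosome 22, 35776354 to 35790207), was at 206, 212 and 208 CPM against 127, 128 and 133 CPM, 1.61-fold higher (adjusted p = 0.0131). The libraries of each group lay within a few CPM of each other.

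Other called NRF2 targets differed less, among them the conjugate exporter ABCC2 (1.33-fold, 450, 447 and 453 against 330, 335 and 348 CPM), the quinone reductase NQO1 (1.42-fold), and GCLM and GCLC, the subunits of the glutathione-making ligase (1.27-fold each). Thioredoxin reductase TXNRD1 (-0.06), the ferritin chain FTL (0.05) and SRXN1 (0.16) were not called, and the cystine carrier SLC7A11 (0.69, adjusted p = 0.112) and GPX2 (0.65, adjusted p = 0.0718) did not pass. Only AKR1B10 was called without each AG120_Nutlin library in turn, which left 1 target in each of those fits. Without vehicle_Nutlin replicate 2 there were 4 targets, and without vehicle_Nutlin replicate 3 there were 13.

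**Figure D3:**
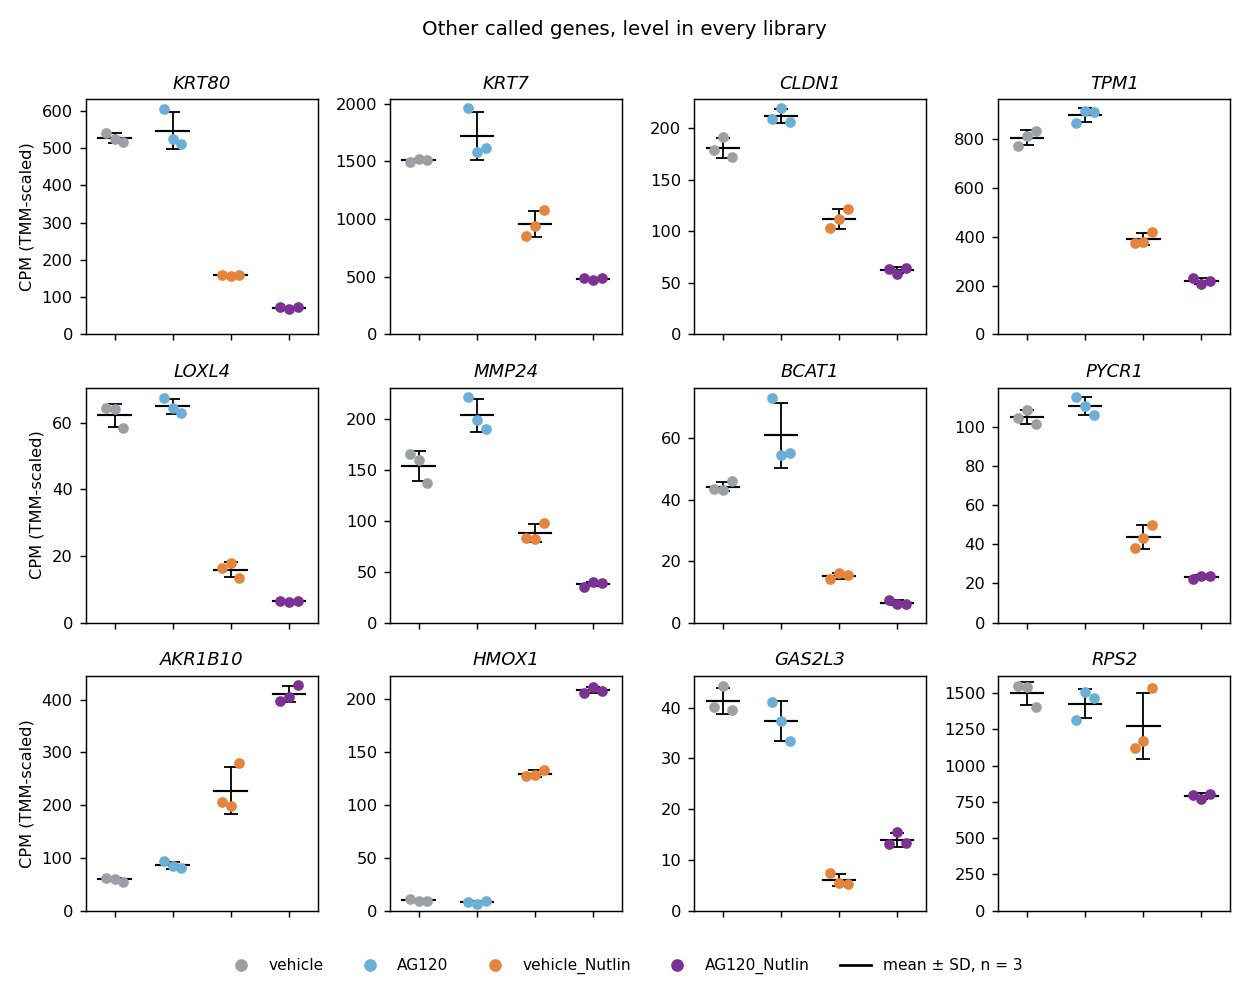
Level in CPM (vertical, from 0) of 12 genes of the other groups in each of the 12 libraries; lines and bars are the mean ± SD of 3 libraries. AKR1B10, HMOX1 and GAS2L3 are higher and the other 9 lower in AG120_Nutlin than in vehicle_Nutlin; RPS2 shows vehicle_Nutlin replicate 3 at 1533 CPM, above the other libraries with Nutlin.

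Most p53 targets were not called, as with most genes, of which 2.36% were called in either direction. At that share short lists can hold 0 calls. Of 11 feedback regulators, 9 repair targets and 17 metabolic targets 0 passed, with medians of 0.0771, 0.205 and -0.0106. Among 13 arrest targets PLK2, a polo-like kinase, was the only call, and it fell (236, 209 and 223 against 336, 324 and 327 CPM, adjusted p = 0.0131). Among 20 apoptosis targets the decoy receptor TNFRSF10C was the only call and fell from a low level (0.844, 0.690 and 0.529 against 1.69, 2.46 and 2.22 CPM, adjusted p = 0.0227), while BAX (0.04), FAS (0.03) and the BH3 protein gene BBC3 (0.28) did not pass. Of 76 other targets 3 rose and 0 fell (3.95% higher, against 0.433% of all genes). In this list 61 had a positive change (median 0.158, against -0.00502 for all genes). The 3 were ABCA12, a lipid transporter of skin (355, 368 and 380 against 251, 243 and 215 CPM, adjusted p = 0.0285), the secreted protein TSKU (74.9, 74.7 and 72.5 against 57.0, 53.7 and 51.0 CPM, adjusted p = 0.0193) and NLRP1. NLRP1, an inflammasome sensor, was at 15.6, 16.8 and 15.5 CPM against 9.58, 8.99 and 3.93 CPM (2.14-fold, adjusted p = 0.0478), with vehicle_Nutlin replicate 3 the lowest. These 5 calls ended when any 1 AG120_Nutlin library was left out. In the other direction, the 76 targets had 6 higher calls without vehicle_Nutlin replicate 1, 7 without replicate 3, 7 with DESeq2 and 14 with no filter on low counts.

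Genes of liver and bile duct identity moved singly and in both directions. Of 21 hepatobiliary transcription factors, NR5A2 (20.1, 20.5 and 18.2 against 26.3, 31.4 and 32.5 CPM, 1.53-fold) and KLF6 (1.39-fold) fell. Complement C3 was 1.55-fold higher (141, 152 and 139 against 90.3, 102 and 85.8 CPM), while the protease C1S was 1.63-fold lower (5.49, 6.71 and 4.94 against 8.89, 8.45 and 10.6 CPM). The C1S entry overlaps that of LPCAT3, at 96 CPM in vehicle_Nutlin, for 29464 bases. CPS1, a urea cycle enzyme, fell from 4.75 ± 0.814 to 2.29 ± 0.416 CPM, and HES4 of the Notch pathway and the EGFR ligand EREG fell 1.59-fold and 1.53-fold. The calls of these 7 genes ended when any 1 AG120_Nutlin library was left out, and that of C1S also without vehicle_Nutlin replicate 3. HABP2, a plasma serine protease made by liver, was at 58.1, 59.9 and 63.3 CPM against 40.3, 40.7 and 34.2 CPM, 1.57-fold higher (adjusted p = 0.00505), and was called without each of the 6 libraries in turn.

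The largest falls at 5 CPM or more included genes of many functions. AOX1, an aldehyde oxidase of liver (chromosome 2, 201450591 to 201541787), was at 4.10, 3.55 and 3.76 CPM against 11.9, 10.5 and 15.3 CPM, 3.31-fold lower (log2 fold change -1.73 ± 0.15, adjusted p = 0.000136). MEIS3, a homeobox factor, was at 3.13, 3.06 and 3.12 CPM against 9.27, 8.51 and 8.72 CPM, 2.84-fold lower (adjusted p = 7.22e-05). OXTR, the oxytocin receptor, was 2.65-fold lower (8.86, 7.69 and 7.35 against 21.5, 23.5 and 18.5 CPM). These genes were taken from called genes whose groups do not overlap, and in each the groups stood far apart relative to their spread. SGK1, a serum- and glucocorticoid-regulated kinase, was 3.03-fold lower, the calcium-binding protein CALB2 2.88-fold, the G protein regulator RGS4 2.87-fold, the carboxypeptidase CPA4 2.58-fold, the orphan receptor GPRC5B 2.57-fold and the protease inhibitor TFPI2 2.41-fold. All 6 kept their calls without each library in turn. ALDH1A3, which makes retinoic acid, was at 46.9 CPM in all 3 AG120_Nutlin libraries and at 92.7, 88.7 and 89.8 CPM in vehicle_Nutlin, 1.93-fold lower (adjusted p = 0.00628). CTNNAL1, an alpha-catenin relative whose entry overlaps FAM206A, was 2.37-fold lower (28.7, 28.2 and 30 against 64.1, 60.4 and 81.2 CPM).

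Further genes outside the lists fell in every fit that left out a library, and are named for that, after their values were seen. They include ANKRD2, of the same family as ANKRD1 (0.844, 0.789 and 0.647 against 2.96, 2.64 and 2.09 CPM), the formin DIAPH3 (2.23, 1.73 and 1.94 against 4.39, 4.31 and 6.03 CPM) and the integrin ITGB2 (1.39, 1.43 and 1.41 against 3.44, 3.77 and 4.15 CPM). FHL1, a LIM protein, was 1.86-fold lower, the activin inhibitor FSTL3 1.71-fold, the hyaluronan synthase HAS3 1.55-fold, the adhesion molecule MCAM 1.53-fold, the guidance cue SEMA3A 2.27-fold and the death domain receptor TNFRSF21 1.55-fold. Groups did not overlap in any of them, which held for all 303 genes called lower and for 14.1% of all genes in that direction.

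Beyond GAS2L3, AKR1B10 and NLRP1, the largest rises at 5 CPM or more covered 12 genes. SSTR5, a somatostatin receptor (10.4, 13.6 and 11.5 against 4.82, 7.67 and 5.94 CPM), and SSTR5-AS1 (6.45, 4.78 and 4.82 against 2.22, 0.959 and 0.855 CPM) lie across each other on chromosome 16 (1122756 to 1131454 and 1114093 to 1128707), so their reads may not be separable. DOCK8, a guanine nucleotide exchange factor, was at 13.9, 13.5 and 13.8 CPM against 7.31, 4.73 and 3.68 CPM, 2.63-fold higher (adjusted p = 0.0131). B3GNT9, a glycosyltransferase, was at 7.60, 7.30 and 7.35 CPM against 4.34, 3.12 and 3.38 CPM, 2.05-fold higher (adjusted p = 0.00896). MTRNR2L2 and MTRNR2L12 are nuclear copies of mitochondrial ribosomal RNA and were 2.15-fold and 1.81-fold higher, beside the higher mitochondrial share of AG120_Nutlin. The part of that share in their rise was not tested. FAM21B (1.85-fold) has near-identical copies. REL of the NF-kappaB family, the integrin ITGA7, TBX2, PLEKHM3 and PRR14L rose 1.72- to 1.87-fold. All 12 calls, SSTR5 and SSTR5-AS1 included, were absent without AG120_Nutlin replicate 1 or 2, and all but that of B3GNT9 without replicate 3. Those of FAM21B, ITGA7, MTRNR2L12, TBX2 and PRR14L were also absent without vehicle_Nutlin replicate 2, and that of MTRNR2L12 without vehicle_Nutlin replicate 3.

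Without Nutlin the same pretreatment gave 8 higher calls (0.051% of genes) and 0 lower ones with edgeR, with 757 higher and 497 lower genes at an unadjusted p under 0.05. DESeq2 called 73 and 16 (238 and 599 with Nutlin), and voom with quality weights 601 and 318 (376 and 603 with Nutlin). A fit of only the 2 groups compared called 24 and 5 without Nutlin, against 0 and 15 with it. Of the 68 genes called higher with Nutlin 56 also had a positive change without it (82.4%, against 50% of all genes), at a median of 0.175 against 0.631. ABCA12, C3 and HABP2 were called in both. Of the 303 lower genes 196 had a negative change without Nutlin (64.7%, against 49.8% of all genes), at a median of -0.0588 against -0.701, and 0 were called there. ALDH1A3 was close in both, at -0.90 without and -0.95 with Nutlin (difference -0.05, adjusted p = 0.945).

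The difference between the AG-120 effects was tested as an interaction, with 57 genes called (0.363%), 5 of them higher (0.0319%) and 52 lower (0.331%), in the direction of with minus without. Among the 371 called genes 47 had a called difference, 44 of them lower. YAP/TEAD targets gave 6 of these: CTGF (-1.85, adjusted p = 0.00146), ANKRD1 (-1.61), TGFB2 (-1.36), CYR61 (-1.10), AMOTL2 (-0.92) and AJUBA (-0.64). FJX1 (-0.75, adjusted p = 0.202) and TNFRSF12A (-0.57) did not pass. KRT7 and KRT80, CLDN1, TPM1, ACTG1, LOXL4, LOXL2, MMP24, PYCR1, PHGDH and BCAT1 also had a called difference, whereas MYC (-0.98, adjusted p = 0.0646) did not. HMOX1 (0.96, adjusted p = 0.0448) was the only NRF2 target with 1, and ribosomal protein, G2/M and G1/S genes had 0. AKR1B10, higher by 0.85 with and 0.54 without Nutlin, had a difference of 0.31 (adjusted p = 0.549). Leaving out 1 of the 12 libraries gave 1 to 36 higher and 22 to 207 lower differences. Without AG120_Nutlin replicate 1, 2 or 3, 24, 25 and 27 of the 52 lower differences were kept, and 1 of the 5 higher each time. Which of the named genes kept theirs is not given. AG120 replicate 1, which enters every difference, had 4.64% of genes over 2-fold from its group and a length correlation of 0.385.

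**Figure D4:**
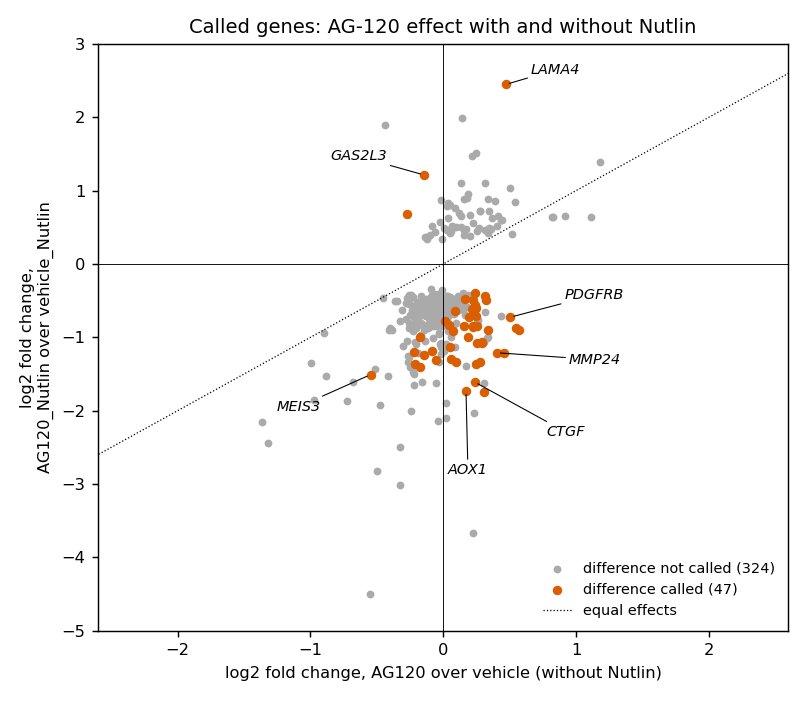
Log2 fold change with Nutlin (vertical) against that without Nutlin (horizontal) for the 371 genes called with Nutlin, which had to lie away from 0 on the vertical axis. Orange points are the 47 genes whose difference was called, and the dotted line marks equal effects.

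A further 10 genes had a called difference but no called effect with Nutlin, and were named after their values were seen. MUC5AC, a gel-forming mucin, was at 0.723, 0.838 and 0.412 CPM in AG120_Nutlin and at 0.741, 0.360 and 0.684 CPM in vehicle_Nutlin, overlapping, while it averaged 8.35 CPM in AG120 and 0.603 in vehicle. BAAT, which conjugates bile acids, was at 8.74, 7.84 and 7.88 CPM against 9.37, 10.3 and 16 CPM with Nutlin (-0.55, adjusted p = 0.135), against an average of 15.2 and 4.93 CPM without. TRIM22, itself induced by p53, was level at 82.0 and 83.5 CPM on average with Nutlin and at 5.79 and 3.17 CPM without. IGFBP4 (difference 0.92) and SLC6A6 (0.87) were the higher differences among the 10.

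In many groups no member passed, where 2.36% of all genes were called in either direction. Short lists can hold 0 calls at that share. Among 32 type I interferon genes, 20 antigen presentation genes, 16 fatty acid synthesis genes, 18 unfolded protein response genes, 31 lysosome and autophagy genes and 15 replication-dependent histone genes 0 were called, with medians between -0.102 and 0.0505. With vehicle_Nutlin replicates 2 and 3 and AG120 replicate 1 left out, the medians of these lists lay between -0.0355 and 0.0996. Without vehicle_Nutlin replicate 3 alone, each of these lists had at most 1 higher and at most 2 lower calls. Cholesterol synthesis had 1 call of 24, DHCR7, the last enzyme of the pathway (46.8, 54.5 and 48.3 against 66.1, 70.2 and 73.3 CPM, adjusted p = 0.0193), and the glycolysis and hypoxia list 1 of 30, the enolase ENO2, which rose 1.43-fold. The calls of DHCR7 and ENO2 ended when any 1 AG120_Nutlin library was left out. RMRP, RN7SK and RPPH1, RNAs without a poly(A) tail, were at 77.5, 163 and 174 CPM in vehicle_Nutlin replicate 2 and at 15.2, 27.7 and 43 CPM in AG120_Nutlin replicate 3, and at 0.121 to 3.99 CPM in the other libraries with Nutlin. None of the 5 measured tail-less RNAs was called.

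**Figure D5:**
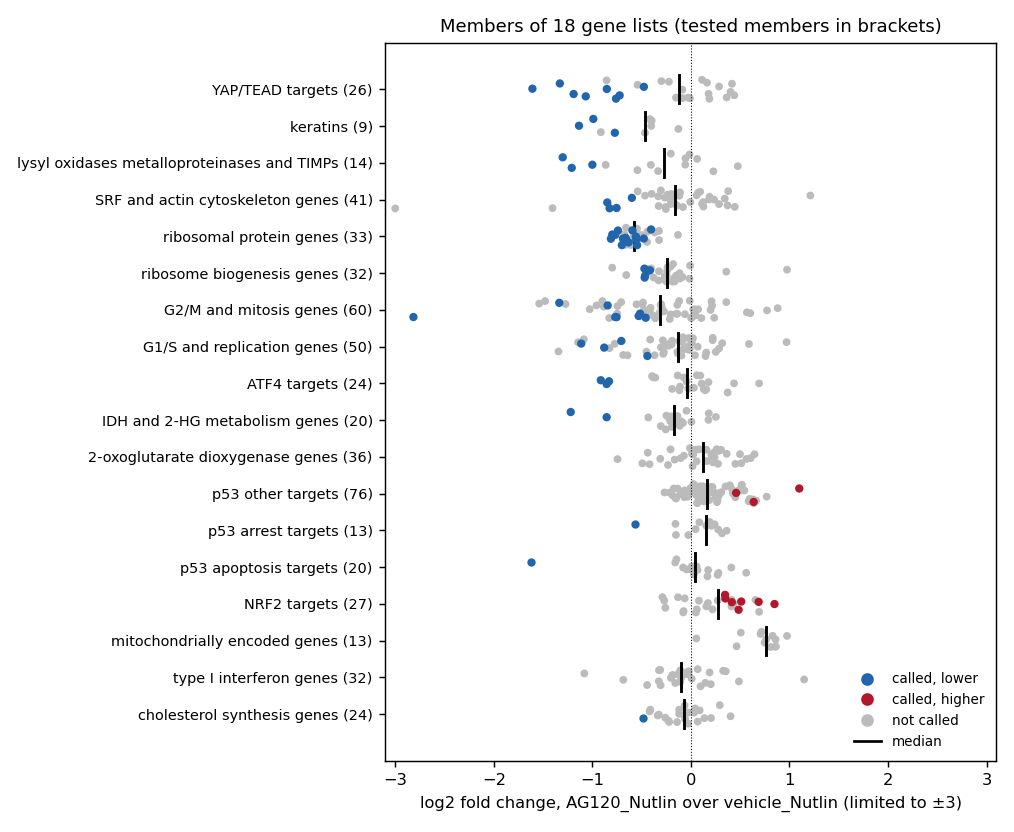
Log2 fold change (horizontal, drawn to at most 3 in size) of every tested member of 18 gene lists, with the number of tested members in brackets; blue is called lower, red called higher, grey not called, and the black bar is the list median. Ribosomal protein genes lie wholly left of 0 (median -0.579) and mitochondrially encoded genes wholly right of 0 (median 0.764), while NRF2 targets hold 7 red points.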

How the data were processed

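Poly(A) RNA of RBE cells was sequenced in 12 libraries, 3 per group. The deposited table holds un-normalized read counts, 1 row per symbol. Build hg19 and the tools STAR, HTSeq, Partek and DESeq2 are listed in the submitters' processing notes, without versions or roles, and the counting's use of strand is not given in the sources used here. Counts were fitted in R 4.3.3 with edgeR 4.0.16: filterByExpr on the 4 groups left 15691 of 55773 entries, libraries were scaled by TMM, and all 12 libraries entered a quasi-likelihood model with group terms. Contrasts were tested with glmQLFTest and p-values adjusted by the Benjamini-Hochberg method over all genes. Genes with an adjusted p no higher than 0.05 were called. Standard errors were derived from the fold change and its F statistic. The model was tested on simulated counts that gave every group the same spread, so that test does not cover the unequal spread of these groups. Library totals ran from 16840161 to 27499433, reads carry no molecular identifiers, and replicate pairs differed by more than counting noise. Gene positions are hg19, from the deposited table, whose stop lies 1 base past the gene. Of the entries, 28 carried symbols turned into dates and none of these is named.

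The comparison, the 47 gene lists and the rule for naming genes were chosen with earlier results of these data known. The rule took the 15 largest rises and 15 largest falls among called genes whose groups did not overlap and whose mean reached 5 CPM in 1 group, MDM2, CDKN1A and IDH1, and up to 4 members of each list. Further called list members and ALDH1A3, CTNNAL1 and HABP2 were added after their values were seen, and a few genes that the rule or the lists hold are not reported here. The rule pointed to ribosomal protein genes or fibroblast markers for promoters, and YAP/TEAD targets were printed in their place, also after values were seen. Motifs were GGAATG (TEAD), TGANTCA (AP-1), the CArG box (SRF) and the interferon-stimulated response element (GAAA, any 2 bases, GAAA), on both strands. The CArG box was in 0 of the 19 YAP/TEAD windows and 1.16% of all windows, and the interferon element in 0 and 3.02%.

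Alternatives to the test were DESeq2 1.42.0, a replicate block, only the compared groups in the fit, and limma 3.58.1 voom with sample quality weights. Alternative scalings were DESeq2's size factors, unadjusted totals and an offset for transcript length (lowess span 0.3, for the 86.1% of tested genes with a length in GENCODE 29). Other runs used every gene, kept genes at 1 CPM in 3 libraries, left out vehicle_Nutlin replicates 2 and 3 and AG120 replicate 1 (the libraries that stood apart), or left out each library in turn.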

Additional observations from a re-analysis of the deposited data

Results flagged for a closer look

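For 30 named genes the AG-120 effect with Nutlin differed from that without Nutlin by the interaction test (edgeR, adjusted p from 0.00146 to 0.0448). Values are the log2 difference, with minus without. Genes of the YAP/TEAD list were CTGF (-1.85), ANKRD1 (-1.61), TGFB2 (-1.36), CYR61 (-1.10), AMOTL2 (-0.918) and AJUBA (-0.64). Keratin, junction, actin and mesenchymal genes were KRT7 (-1.18), KRT80 (-1.19), CLDN1 (-1.07), TPM1 (-1.01), ACTG1 (-0.868), THBS1 (-1.33), PDGFRB (-1.23) and CTNNAL1 (-1.10). Matrix genes were MMP24 (-1.61), LOXL4 (-1.36), LOXL2 (-0.823) and MATN2 (-1.25), with LAMA4 (1.98) in the other direction.

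Metabolic genes were BCAT1 (-1.68), PHGDH (-1.08), PYCR1 (-0.992), DHCR7 (-0.807) and AOX1 (-1.90), with HMOX1 (0.959) in the other direction. The remaining genes were CPA4 (-1.61), OXTR (-1.24), GPRC5B (-1.15), MEIS3 (-0.961) and GAS2L3 (1.36). In 22 of the 30 the change without Nutlin had the opposite sign, in size from 0.0422 (ACTG1) to 0.506 (PDGFRB). None of these opposite changes was called. In MEIS3 the change was negative in both (log2 fold change -1.51 with and -0.547 without Nutlin). All 30 were named because they were called with Nutlin, so those changes lie away from 0 by selection. They also had a called difference, which favours genes with an opposite sign without Nutlin. Of all 303 genes called lower, 64.7% had the same sign without Nutlin.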

How the results depend on the processing

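Genes called higher and lower with Nutlin numbered 68 and 303. DESeq2 size factors, library totals, a filter of 1 CPM and the length offset gave 57 to 79 and 259 to 336. DESeq2 called 238 and 599, no filter 594 and 678, voom with quality weights 376 and 603, and the fit without the libraries that stood apart 629 and 745; the fit of only the groups compared called 0 and 15. Leaving out 1 library gave 5 to 418 and 56 to 619. Without Nutlin the counts of 8 and 0 became 73 and 16 with DESeq2, 73 and 31 with no filter, 24 and 5 with only the groups compared, 601 and 318 with voom, 608 and 300 without the libraries that stood apart, and 17 and 2 with the length offset. Library totals and the 1 CPM filter called 2 lower genes each, and leaving out 1 library gave 1 to 9 higher and 0 to 1 lower. Differences of 5 higher and 52 lower became 23 and 177 with DESeq2, 80 and 203 with no filter, 75 and 358 with voom, and 185 and 452 without the libraries that stood apart; the length offset called 9 higher, and leaving out 1 library gave 1 to 36 and 22 to 207. The cause of these shifts was not tested. COL1A1, not called and positive in the main result, reached -1.06 (adjusted p = 0.0266) with the libraries that stood apart left out, where a single vehicle_Nutlin library is left and is assumed to vary like the other groups.

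With the replicate number as a block 33 genes were called higher and 178 lower with Nutlin, 4 and 0 without Nutlin, and the differences numbered 2 and 30. Same-numbered libraries with Nutlin correlated at 0.0171, 0.0364 and 0.00789 in their deviations from the group means. AG120_Nutlin replicate 1 correlated best with vehicle_Nutlin replicate 3 (0.0529). Without Nutlin, same-numbered AG120 and vehicle libraries correlated at 0.0387, -0.034 and 0.0908. With deviations from means of 3 libraries, these values cannot decide whether the numbers pair the samples.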
